A study of Mus musculus with 4 samples.

Results

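The promoters of the cytoplasmic ribosomal protein genes were examined in an ATAC-seq library, in which a transposase cuts and tags accessible DNA, from the dental mesenchyme of mouse incisors. Members were the protein-coding genes of the GENCODE vM21 basic annotation whose symbol is Rpl or Rps and a number, with an optional a, l or x, together with Rplp0, Rplp1, Rplp2 and Rpsa. The rule found 80 of 21851 protein-coding genes, 31 of the small and 49 of the large ribosomal subunit. It does not take Rps3a1, whose symbol has another ending. Regions that overlapped 1 kb either side of any annotated transcription start site (TSS) of a member were called its promoter regions. With regions whose midpoint was nearest to a member's TSS, the set came to 375 of 121574 regions. All 4 deposited samples came from wild-type C57BL/6 mice at 4 weeks of age without treatment, and they are lanes 1 to 4 whose values stand in 1 shared column. No label tells how many animals were pooled, so the data describe 1 library, with no replicate error, no contrast between conditions and no test.

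Each ribosomal protein is a structural piece of the ribosome, bound to ribosomal RNA in the small subunit, which reads the messenger RNA, or in the large subunit, which joins amino acids. Cells need these proteins in similar amounts, and their genes are active in nearly every cell. Many of their messenger RNAs start with a cytosine and an unbroken run of pyrimidines, the 5′ terminal oligopyrimidine (TOP) tract, through which mTOR signalling sets their translation. In the growing incisor, the mesenchyme supplies odontoblasts, which secrete the protein matrix of dentin.

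The start sites of the members are shown first, because the tract at the start is a feature that the choice of members did not use. A tract was counted where a C within 10 bases of the representative TSS was followed by at least 5 pyrimidines on the sense strand. It was found in 33 of 80 members (41.3%), beside 18.9% of the 21771 other protein-coding genes and 18.3% of genes of like CpG density. The sequences below are from GRCm38 (mm10), run 5′ to 3′ on the strand of the gene, and hold 60 bases of which base 41 is the TSS. Capitals mark the C and its pyrimidines; Rps19 and Rpl7, which are among the members with the most reads, have no such tract at this TSS.
Rps2 (chr17:24720070-24720129, plus strand): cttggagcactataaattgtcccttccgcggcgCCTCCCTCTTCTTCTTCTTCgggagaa
Rps24 (chr14:24490678-24490737, plus strand): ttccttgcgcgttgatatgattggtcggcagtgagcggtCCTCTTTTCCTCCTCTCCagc
Rps21 (chr2:180257337-180257396, plus strand): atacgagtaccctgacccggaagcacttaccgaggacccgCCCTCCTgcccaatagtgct
Rpl22 (chr4:152325813-152325872, plus strand): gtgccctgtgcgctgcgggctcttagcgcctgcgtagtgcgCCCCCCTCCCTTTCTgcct
Rpl29 (chr9:106429499-106429558, plus strand): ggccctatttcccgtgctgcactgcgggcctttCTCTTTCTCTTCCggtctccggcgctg
Rpl30 (chr15:34443203-34443262, minus strand): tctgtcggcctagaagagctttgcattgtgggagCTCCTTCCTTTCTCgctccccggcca
Rpl34 (chr3:130730318-130730377, minus strand): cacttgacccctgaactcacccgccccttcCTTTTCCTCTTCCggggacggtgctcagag
Rpl36 (chr17:56613376-56613435, plus strand): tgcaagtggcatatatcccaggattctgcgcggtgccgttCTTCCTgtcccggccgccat
Rpl37 (chr15:5116605-5116664, plus strand): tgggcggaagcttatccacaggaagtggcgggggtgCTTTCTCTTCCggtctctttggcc
Rps19 (chr7:24884331-24884390, plus strand): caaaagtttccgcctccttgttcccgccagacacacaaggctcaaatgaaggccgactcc
Rpl7 (chr1:16104643-16104702, minus strand): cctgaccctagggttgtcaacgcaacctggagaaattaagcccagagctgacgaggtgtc

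The run after the C was longest in Rps2, with 19 pyrimidines and was 17 long in Rps24. Its median length was 8 in members with a tract and 6 in other genes with one. Only Rps21 and Rpl36 had the C on the annotated TSS base itself, whereas 20 tracts began before it and 11 after it. The annotated start bears on this count. Of the members, 60 were listed among the RefSeq promoters. The nearest RefSeq start was the same base in 14 and within 10 bases in 23. Counting a gene if any of its RefSeq starts had a tract, 33 of those 60 (55%) had one, beside 22.3% of 16455 other genes. This share differs from the 41.3% above in the counting rule and the genes as well as in the start.

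A second feature, 1 of 11 motifs searched, was not used to choose the members either. It was not singled out in advance. Of the 11 it had the largest ratio of its share to that of like-CpG promoters, 5.96 beside 2.08 for the next, ATGGCGG. The palindrome CTCGCGAG, searched between 250 bases before and 49 after the TSS, lay in 9 members (11.3%), beside 1.89% of like-CpG promoters and 1.14% of all others. The promoters below hold 200 bases, of which base 171 is the TSS, and capitals mark every match to the 11 motifs that were searched.
Rps6 (chr4:86857383-86857582, minus strand): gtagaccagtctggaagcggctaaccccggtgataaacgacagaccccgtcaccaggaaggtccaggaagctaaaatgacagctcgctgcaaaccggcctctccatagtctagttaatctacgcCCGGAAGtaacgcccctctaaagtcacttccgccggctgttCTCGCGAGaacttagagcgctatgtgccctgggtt
Rps28 (chr17:33824533-33824732, minus strand): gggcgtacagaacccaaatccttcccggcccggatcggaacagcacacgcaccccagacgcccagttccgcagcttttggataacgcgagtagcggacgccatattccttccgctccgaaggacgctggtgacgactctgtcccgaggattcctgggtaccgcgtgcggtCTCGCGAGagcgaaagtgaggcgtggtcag
Rpl10a (chr17:28328398-28328597, plus strand): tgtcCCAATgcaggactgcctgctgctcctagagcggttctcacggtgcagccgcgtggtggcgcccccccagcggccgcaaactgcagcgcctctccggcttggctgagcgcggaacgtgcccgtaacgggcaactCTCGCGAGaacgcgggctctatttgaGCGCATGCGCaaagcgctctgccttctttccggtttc
Rpl26 (chr11:68901413-68901612, plus strand): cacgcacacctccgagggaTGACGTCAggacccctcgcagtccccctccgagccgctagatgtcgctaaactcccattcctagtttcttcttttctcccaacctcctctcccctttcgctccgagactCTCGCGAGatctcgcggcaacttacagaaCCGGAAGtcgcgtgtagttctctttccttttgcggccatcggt

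In these sequences the palindrome began 5 bases before the TSS in Rps6, 33 before it in Rpl10a and 42 in Rpl26, and on the TSS base in Rps28. Of the 9 members, 7 had it within 50 bases of the TSS. Counted by matches this was 77.8%, beside 52.5% of the matches in other genes. Others with it were Rpl17, Rpl27a and Rpl4, and 4 of the 9 belong to the small subunit.

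Promoters of ribosomal protein genes were nearly all accessible, at a level in the middle of promoters with the same CpG density. A promoter region was listed for 76 of 80 members (95%); the share over all protein-coding genes was 64.6%, and 92.6% in genes of like CpG density. Members had a median of 73.5 promoter reads, summed over a gene's promoter regions with genes lacking a region at 0. The median was 69 reads in other genes of like CpG density and 26 over all protein-coding genes. The log2 ratio of the medians, each with 1 read added, was 0.09 (1.07-fold without it), and over other ways of counting it ran from -0.16 to 0.35. Like CpG density here means the same of 20 equally large classes of CpG per 100 bases within 500 bp of the TSS; the 80 members lay in 11 classes with 11937 other genes, which were weighted by the members per class. A member's median percentile within its class was 49.4. CpG density itself was high, with a median of 6.69 per 100 bases beside 4.30 over all genes, and 74 of 80 members were above the latter.

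The spread of the members was narrower than that of their comparison genes at the lower end. The central 50% of members had between 46 and 109.25 reads, beside 31 and 124 in like-CpG genes, and the lowest 10% ended at 26 reads beside 7. At the top the 90% points were 204.2 and 199 reads. Reads at least 2-fold above the class median were found for 16 of 80 members (20%), and this share was 20.5% in the other genes of these classes. Reads at least 2-fold below the class median were found for 10 members (12.5%), beside 25.6% in the other genes. These 2 shares of other genes are plain counts over the 11937, not weighted by the members per class. They include 1091 genes of a class with a median of 0 reads, which could be called in neither direction. There was a gap towards the upper end: 13 members had 186 to 388 reads and the other 67 had at most 153, and 2.5% of members fell between 7 and 7.5 on the log2(reads + 1) scale, where 11.7% of like-CpG genes lay.

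**Figure D1:**
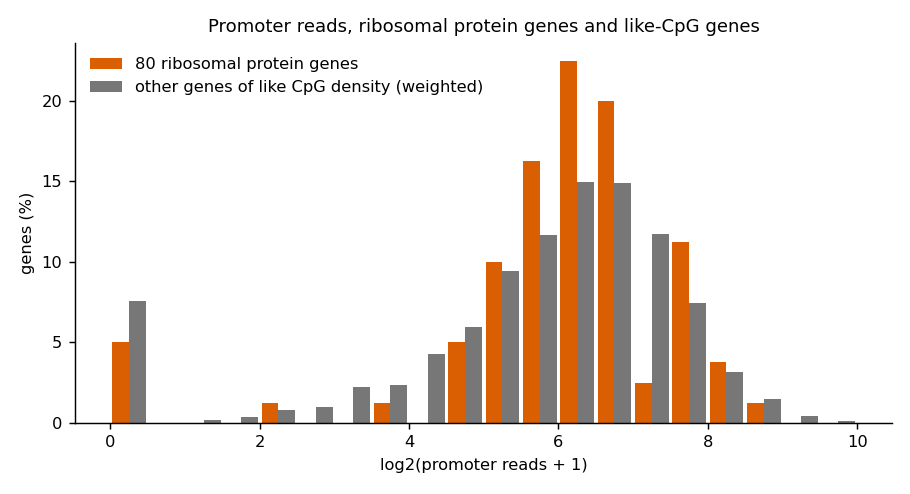
Share of genes (%) by promoter reads on the log2(reads + 1) scale for the 80 ribosomal protein genes (orange) and for other genes of like CpG density, weighted by CpG class (grey). Both peak near the medians of 73.5 and 69 reads. The bars at 0 are genes without a listed promoter region, and the grey bar also holds some genes with a listed region and 0 reads.

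Reads of single members differed by far more than counting error. The interval beside a read count is its exact 95% Poisson interval and holds for counting error only; it is too narrow if duplicate reads were kept. Rpl7, a large subunit protein, had the most, with 388 reads (350.3 to 429) in 1 region of 1778 bp, the widest of the members. That region also overlaps the promoter window of Rdh10, a retinol dehydrogenase gene with 12.4 CpG per 100 bases beside 5.99 at Rpl7, so the reads cannot be divided between them. Rpl37 followed with 330 reads (295 to 368) and Rps19, a small subunit protein mutated in Diamond-Blackfan anaemia, with 324 (289.7 to 361). The intervals of these 3 genes overlapped, and that of Rps29, with 255 reads (225 to 288), lay below the others. Rpl15 had 237 reads (208 to 269) in regions that also serve the divergent Nkiras1. The 5 members with the most reads held 20.4% of all promoter reads of the 80, and the top 10 held 34.4%. Within their CpG classes Rpl7 stood at percentile 99.4, Rpl37 at 97.1, Rps19 at 96.0, Rps29 at 92.5 and Rps21, with 236 reads (207 to 268), at 92.2.

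At the lower end, Rpl39l had 4 reads (1.09 to 10.2) and Rpl8, a protein at the core of the large subunit, had 14 (7.65 to 23.5). Rpl8 was at percentile 13.2 of its class, whose median was 68.5 reads, and its interval ended below that median. Rpl6 had 24 reads (15.4 to 35.7), and Rpl13, Rpl23a and Rpl35a had 26 each (17.0 to 38.1). Rpl13 was at percentile 18.2 of its class and Rpl23a, in a class of lower CpG density, at 40.4. Rpl35a shares its region with the divergent Iqcg. Low and high members could share sequence features: Rpl8 and Rpl37, with 14 and 330 reads, both have a tract and an Ets core, CCGGAAG.

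**Figure D2:**
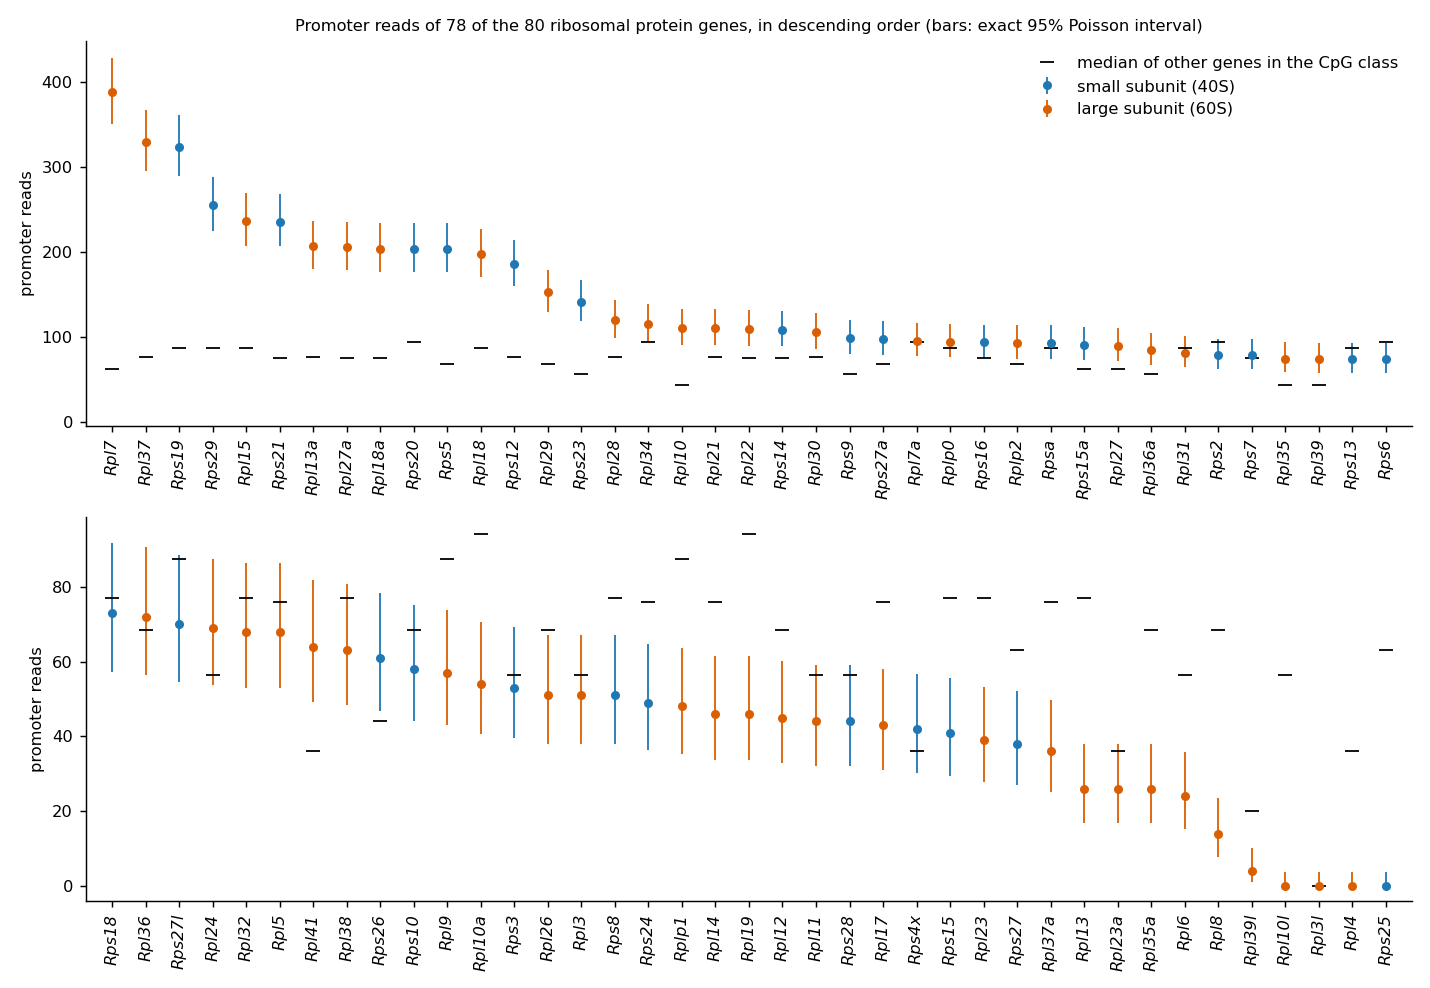
Promoter reads of 78 of the 80 members in order, from the most (upper panel) to the fewest (lower panel, on another scale), with exact 95% Poisson intervals, coloured by subunit; black dashes give the median of other genes in the same CpG class. Rpl7, Rpl37 and Rps19 have 324 reads or more, and 4 genes at the right end have no listed region.

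No promoter region was listed for 4 members: Rpl10l, Rpl3l, Rps25 and Rpl4. Rpl10l is a testis gene copied from Rpl10, and Rpl3l is the form of Rpl3 in striated muscle; the nearest listed regions were 833 kb and 3.19 kb away. Rps25 and Rpl4, by contrast, encode core proteins of the small and the large subunit. For Rps25 on chromosome 9 (TSS at 44407139) the nearest region lay 10.7 kb away, at Ccdc84, and had 40 reads (28.6 to 54.5). Its close neighbour Trappc4, 461 bp away, also had none, and neither did Hyou1, with 9.49 CpG per 100 bases, Slc37a4, Vps11 or Foxr1, so that 2 of 7 genes within 50 kb had a promoter region. For Rpl4, also on chromosome 9 (TSS at 64173375), the nearest region lay 5.40 kb away with 3 reads, and the divergent Zwilch, with its TSS 271 bp away, had none either. In the CpG classes of Rps25 and Rpl4, 93.3% and 85.8% of the other genes had a promoter region. A region that is not listed is not a measured 0. The 200 bases around the representative TSSs of Rps25 and Rpl4 are shown because these are the members of the core set without a region. The 1 RefSeq start listed for Rps25 lies 575 bases downstream of the TSS used here, outside the printed stretch. That of Rpl4 lies 12 bases downstream. Capitals again mark motif matches, and Rpl4 has none in this stretch.
Rps25 (chr9:44406969-44407168, plus strand): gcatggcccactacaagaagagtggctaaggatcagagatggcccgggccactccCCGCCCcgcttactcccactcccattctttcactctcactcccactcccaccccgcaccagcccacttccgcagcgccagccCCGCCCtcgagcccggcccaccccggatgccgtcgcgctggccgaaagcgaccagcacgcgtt
Rpl4 (chr9:64173205-64173404, plus strand): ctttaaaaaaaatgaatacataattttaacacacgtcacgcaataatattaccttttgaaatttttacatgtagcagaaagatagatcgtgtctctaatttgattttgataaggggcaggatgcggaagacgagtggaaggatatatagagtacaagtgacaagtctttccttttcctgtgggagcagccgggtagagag

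The small and the large subunit were close to each other. Small subunit genes had a median of 78 reads (30 of 31 with a region; class percentile 51.8), and large subunit genes had 68 (46 of 49; percentile 46.9). Rps6, the target of the kinase S6K downstream of mTOR, had 74 reads (58.1 to 92.9) and Rpsa, also known as the laminin receptor, had 93 (75.1 to 113.9). The stalk proteins, which recruit elongation factors to the large subunit, differed: Rplp0 had 95 reads (76.9 to 116) and Rplp2 had 93 (75.1 to 113.9), whereas Rplp1 had 48 (35.4 to 63.6), with an interval below both; 36.0% of its region bases have a near-identical copy elsewhere in the genome. Counted over all regions nearest to its TSS, Rplp1 had 364 reads beside 100 for Rplp0 and 93 for Rplp2. Rpl5 and Rpl11, which carry the 5S ribosomal RNA and bind Mdm2 when ribosome assembly is disturbed, had 68 (52.8 to 86.2) and 44 (32.0 to 59.1), with overlapping intervals. Rpl38, whose loss alters skeletal patterning in mice, had 63 (48.4 to 80.6).

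Of the paralogs Rpl3l, Rpl10l, Rpl39l and Rps27l, the first pair had no listed region and hence no measured value, and Rpl39l had 4 reads. Rps27l, a p53-responsive relative of Rps27, had 70 (54.6 to 88.4), beside 38 (26.9 to 52.2) for Rps27 itself. The parents of the other paralogs had regions, with 51 reads for Rpl3, 111 for Rpl10 and 74 for Rpl39. The X chromosome carries 4 members, and each was above the median of its CpG class: Rpl10 with 111 reads (91.3 to 134), Rpl36a with 85 (67.9 to 105), Rpl39 with 74 (58.1 to 92.9) and Rps4x with 42 (30.3 to 56.8). The interval of Rps4x included its class median of 36. Chromosome 7 carries 14 members (17.5%, beside 9.19% of all genes); all had a region, and their median was 96.5 reads.

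**Figure D3:**
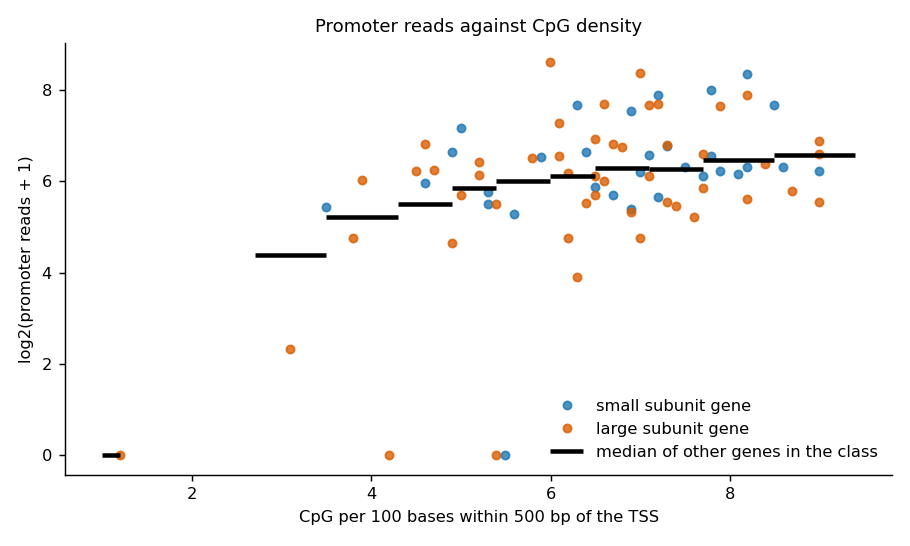
Promoter reads on the log2(reads + 1) scale against CpG per 100 bases within 500 bp of the TSS for each member, coloured by subunit; horizontal lines give the median of other genes over the range of each CpG class. The class medians run from 0 to 94 reads, and members scatter on both sides of them (40 above, 39 below and 1 equal).

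Across the 80 members, reads and CpG density had a Spearman correlation of 0.33, and across all protein-coding genes it was 0.72. These values cover different ranges of CpG density, since 74 of the 80 members lay above the median of all genes. Whether reads follow CpG density less closely in members than in other genes of the same range was not tested. Genes are not independent replicates, and the points share 1 library.

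The regions of the members were compact and close to the TSS. A total of 37 members had 1 promoter region, 32 had 2 and 7 had 3, together 122 regions with 7538 reads, which is 0.328% of the 2297894 reads in all regions. The region with the most reads had a median width of 579 bp, beside 630 bp in like-CpG genes with a region, and all promoter regions of a member summed to 709 bp, beside 830 bp. Reads per kilobase of region were accordingly higher than the reads alone show, with a median of 109 beside 90.6, and the median percentile over all members was 61.2. The midpoint of the largest region lay a median of 73 bp from the TSS, beside 111 bp, and within 100 bp of it in 46 of 76 members (60.5%, beside 46.1%). It lay upstream of the TSS in 39 and downstream in 36 (47.4%, beside 55.6% of like-CpG genes with a region). The region set covered the representative TSS in 75 of 76 members (98.7%, beside 92.8%), the exception being Rpl35, whose region midpoint was 450 bp downstream. The 1 RefSeq start listed for Rpl35 lies 493 bases downstream of that TSS, inside the region. The width and the reads of the largest region had a Spearman correlation of 0.66 across the 76 members and of 0.75 across all genes with a region, all points from 1 library.

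Away from their promoters, members had few regions. No further region had its nearest TSS at 37 of 80 members (46.3%, beside 33.4% of like-CpG genes). The median was 5 reads beside 13, and the stretch of genome nearest to a member, which bounds this count, was also shorter (19.4 kb beside 47.2 kb). A few members stood in wide surroundings. Rpl14 had 360 reads in 21 such regions, Rps24 had 331 in 35, Rplp1 had 316 in 26 and Rpl38 had 177 in 18. The nearest TSS does not show which gene a region acts on.

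Several members share their promoter with another gene. A protein-coding gene started divergently in 11 (13.8%), close to the 14.5% of like-CpG genes, and these 11 had a median of 57 reads beside 74 in the other 69. Rps27a, which is made as a fusion with ubiquitin, shares its 98 reads (79.6 to 119) with Clhc1, and for Rpl18 the regions with reads were nearer to a TSS of Sphk2. Small nucleolar RNA genes, whose products guide the modification of ribosomal RNA, lay inside 29 members (36.3%), 56 in all, beside 1.45% of like-CpG genes. Members with and without them had medians of 78 and 70 reads.

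Processed pseudogenes, copies of the spliced messenger RNA that lack the promoter, rarely overlapped a region. Of 294 annotated ribosomal protein pseudogenes, 4 (1.36%, exact 95% binomial interval 0.372% to 3.45%) overlapped a region, beside 2.62% of 9942 other processed pseudogenes. Rpl29-ps2 had 137 reads, in a region at the promoter of Akr1e1, and the regions at the other 3 had 12 reads or fewer. Copies also bear on the members' own regions, since reads from near-identical sequence cannot always be placed. A stretch of at least 95% identity elsewhere in the genome was found in the regions of 46 of 76 members. It could be short, such as 41 bases in Rpl37, and other promoters were not searched, so no background share is given. In 7 members such copied sequence covered more than 25% of the bases, up to 48.7% in Rps29, 46.9% in Rpl24 and 36.0% in Rplp1. Its part in their read counts was not tested; without these 7 genes the median class percentile was 48.3.

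Other genes of the translation machinery from a list of known groups were read in the same way. Nuclear genes for mitochondrial ribosomal proteins, which serve the separate ribosome of mitochondria, had a region in 74 of 75, a median of 57 reads and a median class percentile of 50.6. Ribosome assembly genes had a region in 20 of 20, with a median of 71 reads and percentile 52.6; Npm1, a nucleolar chaperone, had 282 reads. Translation elongation factors and further genes with TOP messenger RNAs had a region in 13 of 14, a median of 146 reads and percentile 79.8. Among the latter, Eef1a1, which delivers aminoacyl-tRNA to the ribosome, had 304 reads and Eef1g had 279, while no region was listed at Eef2. Fau, which encodes a ribosomal protein fused to a relative of ubiquitin, had 57 reads, and Rack1, a scaffold protein on the small subunit, had 93.

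Members with a tract had a median of 73 promoter reads, and members without one had 74. The tract was found in 14 of 31 small and 19 of 49 large subunit genes, in 8 of 14 elongation and TOP genes and in 16 of 75 mitochondrial ribosomal protein genes (21.3%). Base by base, the position just before the TSS was a pyrimidine in 81.3% of members, beside 69.4% of like-CpG genes, and the 10 bases from the TSS onward were 55% pyrimidine, beside 46.0%. A and T were more frequent in members on both sides of the TSS, for example 43.5% beside 35.4% between 32 and 23 bases upstream. Exact TATAAA on the sense strand beginning 35 to 24 bases before the TSS occurred in 1 member, Rps2 (1.25%, beside 0.832% of like-CpG genes).

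**Figure D4:**
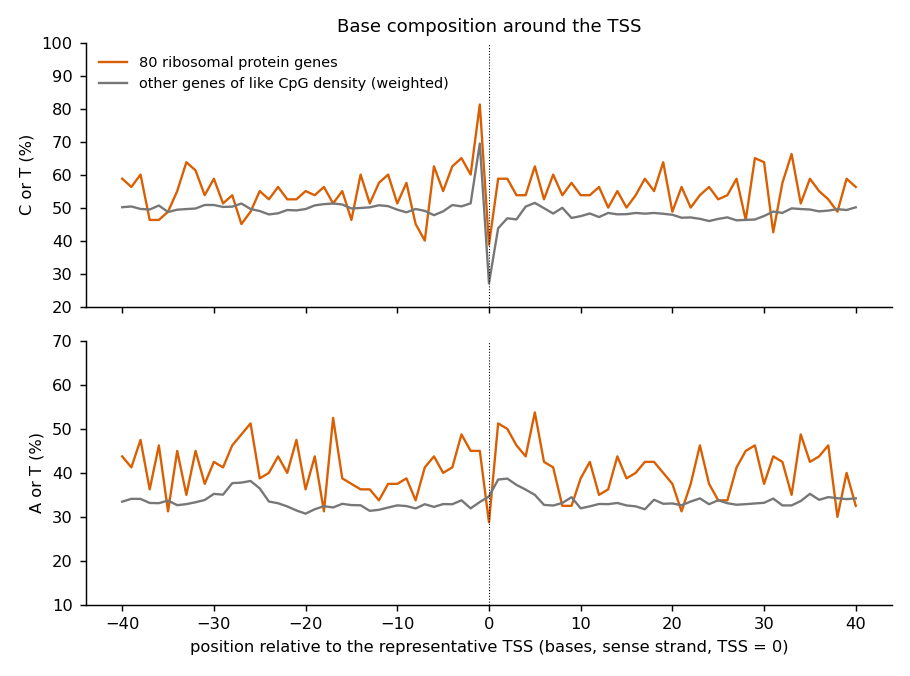
Share of C or T (upper panel, %) and of A or T (lower panel, %) at each base from 40 before to 40 after the representative TSS, in the 80 members (orange) and in like-CpG genes weighted by class (grey). Members reach 81.3% pyrimidine at the base before the TSS, where like-CpG genes reach 69.4%, and hold more A and T over most of the window.

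Of the motifs searched, some were more and some less frequent in members than in like-CpG promoters. Motifs were exact matches on both strands. CCGGAAG, the Ets core, was present in 28 members (35%, beside 19.2% of like-CpG and 11.1% of all other promoters). ATGGCGG, bound by Yy1, was present in 13 (16.3%, beside 7.81%), and the CRE sequence TGACGTCA in 6 (7.5%, beside 3.69%). The Sp and Klf sequence GGGCGG was in turn less frequent, with 42 members (52.5%, beside 69.2%), and so was CCAAT, the NF-Y sequence, with 24 (30%, beside 38.7%). The E-box CACGTG, recognised by Myc among others, was found in 10 (12.5%, beside 11%), GCATGCGC, bound by Nrf1, in 4 (5%, beside 5.97%) and TATAAA at any place in 8 (10%, beside 6.56%). TGACTCA, the AP-1 sequence, was found in 3 (3.75%, beside 3.09%), and TGTGGTTT, the Runx sequence, in none (beside 0.858%). None of the 11 motifs was found in 11 members (13.8%, beside 9.64%). A match is a sequence description and not evidence of binding. The Ets core occurs more than once in Rpl37, Rps21 and Rpl15, which are among the 6 members with the most reads. It also does so in Rps14, in Rps18, with 73 reads that are shared with Vps52, and in Rpl39l with 4. The promoters of Rpl37 and Rps21 are shown as examples.
Rpl37 (chr15:5116475-5116674, plus strand): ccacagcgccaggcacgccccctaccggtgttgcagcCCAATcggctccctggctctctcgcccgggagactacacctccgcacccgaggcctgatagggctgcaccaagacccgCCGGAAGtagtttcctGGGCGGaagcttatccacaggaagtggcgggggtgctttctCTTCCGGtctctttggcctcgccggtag
Rps21 (chr2:180257207-180257406, plus strand): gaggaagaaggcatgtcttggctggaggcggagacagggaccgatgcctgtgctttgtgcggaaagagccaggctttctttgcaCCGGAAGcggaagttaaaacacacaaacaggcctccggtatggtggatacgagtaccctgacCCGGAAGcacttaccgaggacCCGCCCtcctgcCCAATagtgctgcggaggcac

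The mitochondrial ribosomal protein genes, which encode no part of the cytoplasmic ribosome, gave 34.7% for the Ets core and 20% for ATGGCGG, close to the members, and 4% for CTCGCGAG. The 9 members with CTCGCGAG had a median of 54 reads beside 74 in the others, and Rpl27a alone of them exceeded 100 reads, with 206. The 6 members with TGACGTCA had a median of 148.5 reads beside 72.5, ranging from 26 in Rpl13 to 255 in Rps29. The 28 members with the Ets core had 78.5 beside 68.5.

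**Figure D5:**
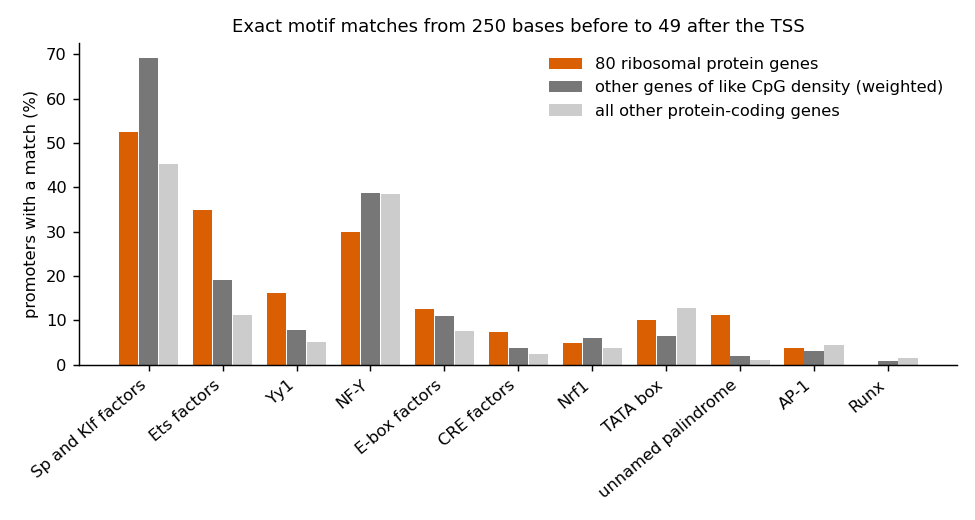
Share of promoters (%) with an exact match to each motif, named by the factors that bind it, between 250 bases before and 49 after the TSS, in the 80 members (orange), like-CpG genes weighted by class (dark grey) and all other protein-coding genes (light grey). The members lie above like-CpG genes at the Ets core (35% beside 19.2%) and the palindrome (11.3% beside 1.89%) and fall below them at the Sp and Klf sequence (52.5% beside 69.2%).

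The labelled tissue was checked on promoters of marker genes. All 8 dental mesenchyme markers had a promoter region, with 30 reads at Prrx1 to 164 at Msx1. None of 3 leukocyte markers (Ptprc, Cd68 and Tyrobp) had one, and 2 of 3 each had one for epithelium (up to 28 reads, at Krt14) and endothelium (up to 15 reads, at Tie1). Over all protein-coding genes the share with a promoter region was 64.6%, close to the 2 of 3 above. For other genes in the members' CpG classes it ran from 23.9% to 96.8%, and the markers were not matched for CpG density. These counts alone therefore do not tell the tissue. How much of the signal at ribosomal protein genes came from other cells was not tested.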

How the data were processed

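ATAC-seq of dental mesenchyme was sequenced in paired ends and, per the labels' protocols, aligned to mm10 with BWA-MEM, with peaks called by MACS2. The submitters' processing notes name Partek and STAR 2.6.1d without a role. Duplicate removal, the transposase offset and the libraries used for calling are not given in the sources used here. The authors deposited CPM values per region; 1 read is worth 0.0484, and dividing by this step and taking 1 off gave reads that were whole within 0.01 for 99.9% of regions (84 exceptions). The authors also deposited expected counts, for 16382 regions here, and these differed by at most 0.00155 reads. The table's 1 other value column belongs to no sample here and was not used. The 121574 listed regions held 2297894 reads, with a median of 7 a region. This sum is not the depth of the whole library.

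Genes, TSSs and classes came from GENCODE vM21 basic and the GRCm38 genome, with the representative TSS of a gene taken by APPRIS, support level and transcript number; RefSeq promoters (GRCm38.p6) gave other starts. Python 3.11.15 with pandas 2.3.3 and scipy 1.17.1, samtools 1.23.1 and BLAST+ 2.17.0 were used, and the scripts were tested on simulated data. Members and lists were chosen with earlier results of these data known. Values of a few named genes are not reported here. Named were the 5 members with the most and the fewest reads, the 5 highest and lowest class percentiles, those without a region, a fixed list, and examples picked after their values were seen. The 4 lanes gave no separate values, so no test was made. Alternatives covered windows, filters, assignment, classes and starts.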

Additional observations from a re-analysis of the deposited data

How the results depend on the processing

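No paired analysis was possible because the 4 lanes form 1 group and share 1 column, and leaving out a lane could not be run for the same reason. Over 14 alternatives the log2 ratio of medians ran from -0.16 (observed over expected CpG) to 0.35 (reads per kilobase), and over 16 the median class percentile ran from 43.6 to 61.2; 2 of the 16, without genes with copied sequence and without the 5 members with the most reads, were added after seeing the data. Counting regions by the nearest TSS gave a median of 91.5 reads for members and 93 for like-CpG genes. The tract share was 28.8% (beside 9.82%) within 5 bases of the TSS. With any RefSeq start of the 60 members listed there it was 55% (beside 22.3%), an alternative added after seeing the data. In a motif window from 500 bases upstream, GGGCGG was in 65%, CCAAT in 45% and TATAAA in 21.3% of members, as a longer window holds more matches. The shares of other promoters in that window are not given here, so whether their differences from members held is not shown. The other 79 values for these results stayed within the 95% interval of the main value. That interval was taken over the members, by order statistics for medians and binomially for shares. Members are not independent replicates, so it is only a yardstick for the size of a change and does not measure counting error. Of 255 values for a set list of named genes and for gene groups, 12 fell outside the interval, which was Poisson for genes. Some genes named here were not on that list, for example Rpl18, Rps18, Rpl14 and Rps24. By the nearest TSS these had 0, 1, 406 and 380 reads, beside 198, 73, 46 and 49 at the promoter. Counting by the nearest TSS, which adds regions away from promoters and drops those nearer to another gene, gave 34 reads for Rps27a, 102 for Rpl11, 100 for Rpl5, 240 for Rpl38, 430 for Rps29, 12 for Rpl39l and 364 for Rplp1, which then exceeded the 100 of Rplp0. It also gave median percentiles of 39.7 for mitochondrial ribosomal protein genes and 39.03 for ribosome assembly genes. The latter stood at 48.0 without genes lacking a region and at 49.05 with observed over expected CpG, and Rpl39l had 0 reads once regions under 10 reads were dropped. The exact intervals cover counting error, and for 0 reads in a listed region the interval ends at 3.69. Unlisted promoters, such as those of Rps25 and Rpl4, are without a value.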

Other observations

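Relatives of the members that the naming rule leaves out had the following promoter reads, with exact 95% Poisson intervals. Rps3a1, which encodes a core protein of the small subunit, had 77 reads (60.8 to 96.2) in 3 regions. Rpl22l1, a paralog of Rpl22, had 143 (120.5 to 168), beside 110 (90.4 to 133) for Rpl22 itself. Rpl36al, a relative of Rpl36a, had 149 (126 to 175), beside 85 (67.9 to 105) for Rpl36a. Counted by the nearest TSS, Rpl36al had 0 reads, so its promoter reads lie in regions nearer to another gene. Its CpG density was also higher than that of Rpl36a, so these counts do not compare promoters of like density. Rpl7l1, a relative of Rpl7, had 33 (22.7 to 46.3), beside 388 for Rpl7. No region was listed at Rps27rt, a copy of Rps27 with 2.40 CpG per 100 bases.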
